A study of Homo sapiens with 18 samples.

Results

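Replication-dependent histone genes encode the histones that package newly copied DNA. They were taken as the protein-coding genes of GENCODE release 44 (hg38) whose symbols belong to the H1-1 to H1-6, H2AC, H2BC, H3C and H4C series, and 69 of the 19111 protein-coding genes on chromosomes 1 to 22 met this rule. The 69 genes comprised 6 H1, 17 H2A, 18 H2B, 13 H3 and 15 H4 genes. On chromosome 6, 55 of them lay in 4 groups at 6p22, which are called spans 1 to 4 below and held 2, 32, 5 and 16 genes. Of the others, 11 lay at 1q21, 2 (H2AC25 and H2BC26) at 1q42, and 1 (H4C16) on chromosome 12.

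ChIP-seq had been performed in HEK293T cells, a line derived from human embryonic kidney, with antibodies against H3K27ac and CTCF. Cells were untreated (CTRL) or had received 1 mM VPA for 1 day, and each combination of antibody and treatment had 3 libraries (replicates 1 to 3). VPA is valproic acid, an inhibitor of histone deacetylases, and no group carried a genetic change beyond those of the line itself. The labels do not say whether replicates came from separate cultures, so the spread between them may be technical. The 6 input libraries were not analysed here. A gene was said to have a peak if a peak of the list shared at least 1 bp with the gene body plus 1 kb on either side. Peak lists hold no read totals, so sequencing depth is unknown, and the genome-wide background coverage (3.51 to 3.95 fragments per position) served as its measure.

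As a check of the labelled line, marker genes were searched for H3K27ac peaks near the transcription start site (TSS, 1 kb to either side). GAPDH, EEF1A1 and HSP90AB1 had a peak in all 6 lists and ACTB in 5. Of the kidney and HEK293 lineage genes named here, LHX1 had a peak in all 6 lists, whereas PAX2, LIN28B and EYA1 had none. PTPRC and CD3E (blood) had none, nor had KRT5 and KRT14 (skin) or ALB (liver), and APOA1 (liver) had a peak in 1 list.

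Histones H2A, H2B, H3 and H4 form the nucleosome core and H1 binds the linker DNA between nucleosomes. Their replication-dependent genes are transcribed in S phase from nuclear bodies organised by NPAT, a target of cyclin E and CDK2. The mRNAs carry no poly(A) tail and end in a stem-loop bound by SLBP. H3K27ac, acetylation of lysine 27 of histone H3, is a mark of promoters and enhancers in use, and the zinc finger protein CTCF holds the base of chromatin loops.

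The stem-loop is the sequence by which these genes differ from other genes, and it is shown for that reason. A stem of 6 paired bases around a loop of TTT and any base was searched within 100 bases after the stop codon in hg38, and 64 of the 69 genes (92.8%) had one, compared with 77 of the 19042 other protein-coding genes (0.404%). It began 23 to 68 bases after the stop codon (median 36). The 64 genes used 5 different sequences, given with the loop in capitals.
H2AC17 type, in 40 H1, H2A, H2B and H3 genes: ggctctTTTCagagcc
H2BC12 type, in 9 H1, H2A, H2B and H3 genes: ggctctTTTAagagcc
H2AC20 type, in this gene only: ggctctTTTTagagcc
H4C5 type, in 10 H4 genes: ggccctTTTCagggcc
H4C14 type, in 4 H4 genes: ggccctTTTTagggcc
The H4 genes thus had a stem of their own, which none of the other families shared. No stem-loop of this form was found for H3C6, H2BC10, H2AC11, H2AC15 and H4C13.

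Promoters were read from the RefSeq table of GRCh38.p14, which matched 64 of the 69 genes, and the 250 bases before the TSS were searched on both strands for 4 motifs of histone promoters, none of which contains another. CCAAT, the box bound by NF-Y, was present in 84.4% of the 64 promoters and in 36.8% of all genes of the table. The TATA box letters TATAAA were present in 67.2% against 13.1%. The octamer ATTTGCAT, a site of OCT1 (POU2F1), was present in 40.6% against 2.01%. It occurred in 68.8% of H2A and 77.8% of H2B promoters, in 9.09% of H3 promoters, and in no H1 or H4 promoter. A gene counted if any of its promoters in the table held the letters, and the 1 H3 gene was H3C4, through a second promoter with the same coordinates as that of H2AC7. AAACACA, the H1 box, was present in 6 of 6 H1 promoters and in no promoter of the other families, against 5.98% of all genes. H4 promoters had the CCAAT letters in 3 of 13 cases, compared with all promoters of the other 4 families.

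Promoters are shown for extremes of the H3K27ac fold enrichment described below and for a gene without a peak, with motif letters of either strand in capitals. H2AC17 and H2BC17 are a divergent pair whose promoter windows overlap on opposite strands. H4C5 had the highest mean fold enrichment of all members, a rank that rests on replicate 1, and its promoter held none of the 4 motifs. H4C6 had no H3K27ac peak in any list, and its promoter held a CCAAT box.
H2AC17, minus strand, chr6:27893186-27893435: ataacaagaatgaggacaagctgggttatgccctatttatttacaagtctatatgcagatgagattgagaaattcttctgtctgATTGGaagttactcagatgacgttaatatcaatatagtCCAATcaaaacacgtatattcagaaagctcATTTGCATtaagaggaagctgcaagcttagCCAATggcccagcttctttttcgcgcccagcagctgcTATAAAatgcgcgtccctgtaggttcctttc
H4C5, plus strand, chr6:26204360-26204609: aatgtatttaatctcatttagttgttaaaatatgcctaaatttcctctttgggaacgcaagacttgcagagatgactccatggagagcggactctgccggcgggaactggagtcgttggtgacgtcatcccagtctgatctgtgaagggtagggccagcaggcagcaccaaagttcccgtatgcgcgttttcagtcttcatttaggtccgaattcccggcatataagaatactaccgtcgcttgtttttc
H4C6, plus strand, chr6:26240143-26240392: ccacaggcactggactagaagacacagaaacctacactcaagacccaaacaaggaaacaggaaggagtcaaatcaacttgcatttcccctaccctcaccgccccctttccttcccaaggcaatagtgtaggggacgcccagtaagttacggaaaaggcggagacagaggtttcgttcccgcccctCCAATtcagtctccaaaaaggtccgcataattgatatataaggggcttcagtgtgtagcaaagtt

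The first question was which histone genes carried H3K27ac. A peak was found in all 6 lists at 53 of the 69 genes (76.8%), compared with 68.0% of all protein-coding genes. Another 6 genes (8.70%) had a peak in some lists, against 11.0% of all genes and 10 (14.5%) had a peak in no list. At least 1 peak was thus found at 85.5% of the members and 79.0% of all genes. Within 1 kb of the TSS, 52 of 69 members (75.4%) had a peak in all lists, against 58.1% of all genes. By family, 15 of 17 H2A, 14 of 18 H2B, 10 of 13 H3, 10 of 15 H4 and 4 of 6 H1 genes had a peak in every list. So had all 14 genes outside chromosome 6. Most of these genes shared their peaks. The windows of the 69 genes touched 50 merged H3K27ac regions, 23 of which reached 2 or 3 histone genes, so genes of a pair are not independent measurements.

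The 10 genes without any H3K27ac peak lay among acetylated neighbours. They were H1-1, H1-6, H2BC3, H2BC10, H3C3, H3C8, H4C6 and H4C7 in span 2 and H3C11 and H4C13 in span 4. H1-6 (chr6:26107412-26108135, minus strand) encodes the testis-specific linker histone. Their nearest H3K27ac peak in any list was 1695 to 12719 bp from the gene body (median 5967 bp). H2BC3 and H3C3 were neighbours in gene order, as were H4C6 and H4C7, H3C8 and H2BC10, and H3C11 and H4C13. None of the 10 had a CTCF peak in any list, and neither had 39 of all 69 members (56.5%) and 23.9% of all genes. Of these 10 genes, 8 had the stem-loop, and of the 9 whose promoter was in the RefSeq table, 8 had a CCAAT box and 4 the TATAAA letters, compared with 41 and 34 of 49 promoters of the genes with a peak in all lists.

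The 6 genes with a peak in some lists were weakly marked. The germ-line pair H2AC1 and H2BC1 of span 1, which encodes testis-specific H2A and H2B, shared a peak in the replicate 1 lists of both treatments alone, with a fold enrichment of 3.61 in CTRL and 4.06 in VPA. H2AC14 and H2BC14 shared a peak in the other 4 lists, with fold enrichments of 5.49 and 6.94 in CTRL and 4.51 and 6.01 in VPA. H4C12 had a peak in CTRL replicates 2 and 3 (6.33 and 8.10) and in VPA replicate 2 (7.61). H4C9 had a peak in VPA replicates 2 and 3 alone (2.97 and 3.19). No member had a peak in all 3 lists of one treatment and in none of the other, a pattern that 0.607% of all genes showed for VPA and 0.00523% for CTRL. The number of members with a peak was 55, 56 and 56 in CTRL and 55, 57 and 56 in VPA.

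The strength of a peak is given as the fold enrichment of its summit over the local background, and a gene took the value of its highest peak. The median over the 53 genes of the mean of the 6 libraries was 29.1, compared with 20.2 over the 12990 genes with a peak in all 6 lists. Of the 53 genes, 44 lay above that median of all genes and 20 in the highest 10%. The median fold enrichment of the members was 16.9, 47.3 and 36.7 in CTRL replicates 1 to 3 and 11.6, 31.1 and 31.8 in the VPA replicates. Replicate 1 thus had the lowest values in both treatments. The local background under the members' summits was also different in replicate 1, with medians of 34.5 (CTRL) and 32.6 (VPA) fragments against 13.4, 14.1, 12.1 and 13.0 in the other libraries. The part of this background in the values was not tested, and fold enrichments are therefore given by library.

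H4 genes included the highest value of the set. At H4C5 (chr6:26204610-26205021, plus strand) the fold enrichment was 121, 53.3 and 46.2 in CTRL and 94.7, 36.3 and 32.2 in VPA. The replicate 1 libraries were above the others here, unlike at most members, and their local background at this summit was 3.63 and 3.68 fragments, the genome-wide level. In replicates 2 and 3 the fold enrichment of H4C5 lay below that of H2AC17 in every library. The fragments over the H4C5 summit varied less, at 561, 575 and 542 in CTRL and 442, 359 and 369 in VPA. They lay below the median of the members in every library, so the rank of H4C5 did not hold on this measure. The lowest H4 gene with a peak in all lists was H4C3, with a mean of 16.8.

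H2A and H2B genes are mostly arranged as divergent pairs that share a promoter, and the pair H2AC17 and H2BC17 had the highest means of both families (50.6). Its peak also covered H3C12, the highest H3 gene. The fold enrichment was 30.7, 54.0 and 91.8 in CTRL and 23.7, 51.4 and 52.3 in VPA, so the treatments overlapped. The pair H2AC8 and H2BC8 had the lowest means (6.07 and 5.96). At H2BC8 the fold enrichment was 2.55, 7.50 and 8.46 in CTRL and 3.66, 5.68 and 7.94 in VPA. Here too the treatments overlapped. The lowest H3 gene was H3C7 (16.3), which shared its peak with H2BC9.

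The H1 genes had the lowest family median (15.2, against 32.3 for H2A, 34.3 for H2B, 35.0 for H3 and 29.0 for H4). The peak counted for H1-5 was that of H2AC16 and ended outside the H1-5 gene body in every list. Its summit lay 1992 to 2111 bp downstream of the H1-5 TSS. H1-2 was the highest (22.5) and H1-3 the lowest (7.35) of the 4 H1 genes with a peak in all lists. At H1-3 the fold enrichment was 8.67, 7.47 and 6.90 in CTRL and 6.84, 6.12 and 8.12 in VPA, which overlapped.

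At 1q21 the genes H3C14, H2AC18, H2AC19, H3C15, H4C14 and H4C15 lie in a duplicated block, and 90.3% to 100% of the 50-base words of their windows recur elsewhere in hg38. Signals of the copies may therefore be mixed. Their fold enrichments were close to each other, with means of 34.4 at H3C14 and H2AC18, 35.5 at H2AC19 and H3C15, 40.5 at H4C14 and 42.5 at H4C15. At H2BC18 and H3C13, which share an H3K27ac peak, 71.5% and 67.9% of words recurred, and at members of chromosome 6 at most 19.7%. Outside chromosome 6 and 1q21, the pair H2AC25 and H2BC26 had a mean of 26.0 and H4C16 of 28.9. Some GENCODE gene bodies of this set are long, such as the 37610 bp of H2BC4, and their windows take in peaks of their neighbours.

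**Figure D1:**
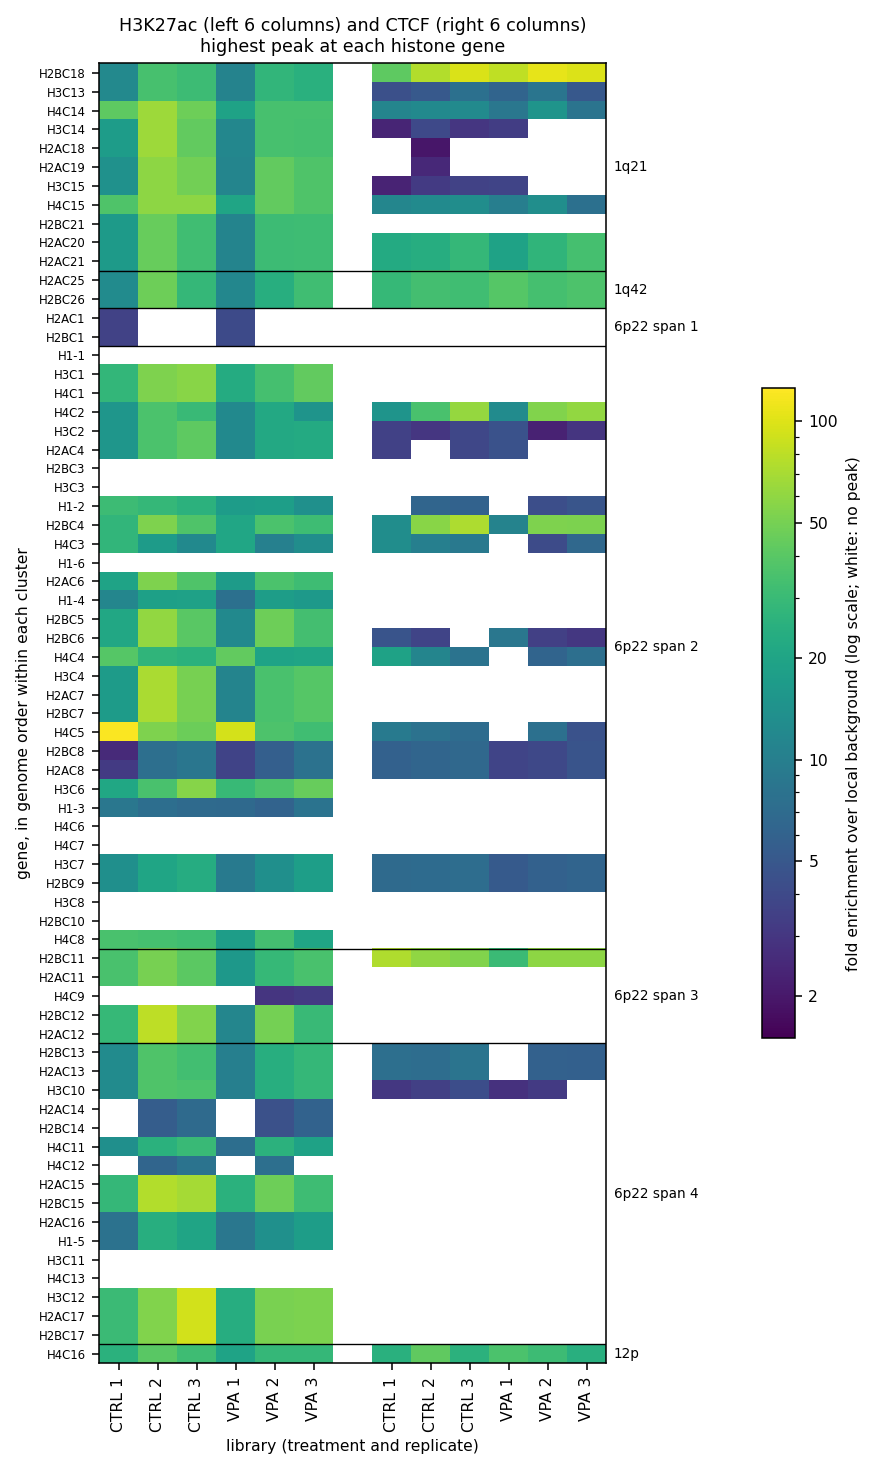
Fold enrichment (colour, log scale) of the highest peak at each of the 69 histone genes (rows) in the 6 H3K27ac and 6 CTCF libraries (columns), with white for no peak. For H3K27ac, 53 rows are filled throughout and 10 are empty, and H4C5 in CTRL replicate 1 is the brightest cell (121), whereas CTCF is filled throughout in 17 rows.

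The next question was whether VPA changed the H3K27ac signal at these genes. On fold enrichment no histone gene passed the test, with 0 of 53 called higher and 0 of 53 called lower by limma with Benjamini-Hochberg adjustment over all 12990 genes tested (adjusted p 0.293 to 0.991). Of all genes tested 0.0154% were called higher and 0% lower. At an unadjusted p under 0.05 there were 2 of 53 members and 1819 of all genes. The log2 change (VPA minus CTRL, after centring each library on its median) was negative at 48 of 53 members, with a median of -0.18, and at 51.4% of all genes, with a median of -0.01. The range over the members was -0.72 to 0.32. The medians of the VPA libraries lay 0.24 below those of CTRL on the log2 scale before centring. Without centring the median change was -0.43 at the members and -0.25 over all genes, again with no member called. Were the mark itself lower, fewer cells that carry it and less of it per cell could not be told apart in bulk libraries. Fold enrichment is relative to the background of its own library and gives no total amount of the mark. The H3K27ac lists also differed in length, from 26299 to 29799 entries without VPA and from 38441 to 40992 entries with it. Whether this difference in length bears on the lower values was not tested.

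The pair H2BC12 and H2AC12 of span 3 (chr6:27146361-27146855 and chr6:27147106-27147562), which share a peak, had the most negative change. Their fold enrichment was 29.0, 80.7 and 53.7 in CTRL and 11.4, 49.3 and 30.1 in VPA. Each VPA library was lower than the CTRL library of the same number, while the treatments as a whole overlapped. The log2 change was -0.72 ± 0.27 (SE, n = 3 per treatment), with an adjusted p of 0.293 by limma (exact permutation p = 0.3 for this value before centring, two-sided, and 0.3 adjusted over the 5 such comparisons of single genes made here). With the replicate number as a block, whose use rests on the check given with the processing, the limma adjusted p was 0.0481 and this pair was the 1 peak called lower among the members. In that fit 2.26% of all genes were called lower and 3.07% higher.

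At 2 genes the fold enrichment of every VPA library lay below every CTRL library, H1-2 and H4C14, against 1.12% of all genes tested, and at none did it lie above, against 1.01%. At H1-2 (chr6:26055740-26056470, minus strand), which encodes the linker histone H1.2, it was 31.2, 28.8 and 25.9 in CTRL and 17.3, 17.8 and 13.7 in VPA. On the log2 scale and before centring, the difference was -0.82, from 4.84 ± 0.13 to 4.02 ± 0.21 (SD, n = 3 each, two-sided exact permutation p = 0.1, the smallest that 3 against 3 allows, and 0.167 adjusted over 5 such comparisons). At H4C14, in the duplicated block, it was 41.8, 65.7 and 47.2 in CTRL and 19.03, 34.7 and 34.4 in VPA (two-sided, exact permutation p = 0.1, adjusted 0.167). Both genes were picked because their libraries did not overlap, which fixes the exact permutation p at 0.1. The adjustment does not count the other genes searched, so these p-values cannot serve as evidence of a change. In limma H1-2 had a log2 change of -0.58 ± 0.52 (SE, adjusted p = 0.645) and H4C14 of -0.59 ± 0.32 (SE, adjusted p = 0.428).

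The fragments over the summit are not divided by the local background, and they include any background fragments there. They were compared as an alternative measure. At the highest peak of each gene their median over the 53 members was 696, 666 and 565 in CTRL and 477, 408 and 401 in VPA, and the 2 treatments did not overlap. When the peak with the most fragments was taken and divided by the background coverage of the library, the value of every VPA library lay below every CTRL library at 42 of 53 members (79.2%), against 37.8% of all genes, and above at none, against 2.81%. The 42 genes include pairs and trios that share a peak. Their share was not compared with that of other genes of equal level. Centred on the library median, limma called 24 of 53 members lower and 3 higher, compared with 23.9% of all genes lower and 18.7% higher. The 24 genes rested on 13 distinct peaks and the 3 genes on 2. The library medians of VPA lay 0.41 below those of CTRL (log2), and without centring 26 members were called lower and 0 higher, against 25.7% and 1.19% of all genes. With the replicate block the centred counts were 31 lower and 3 higher, against 29.6% and 25.0% of all genes. The number of calls at these genes thus differed between the 2 measures.

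**Figure D2:**
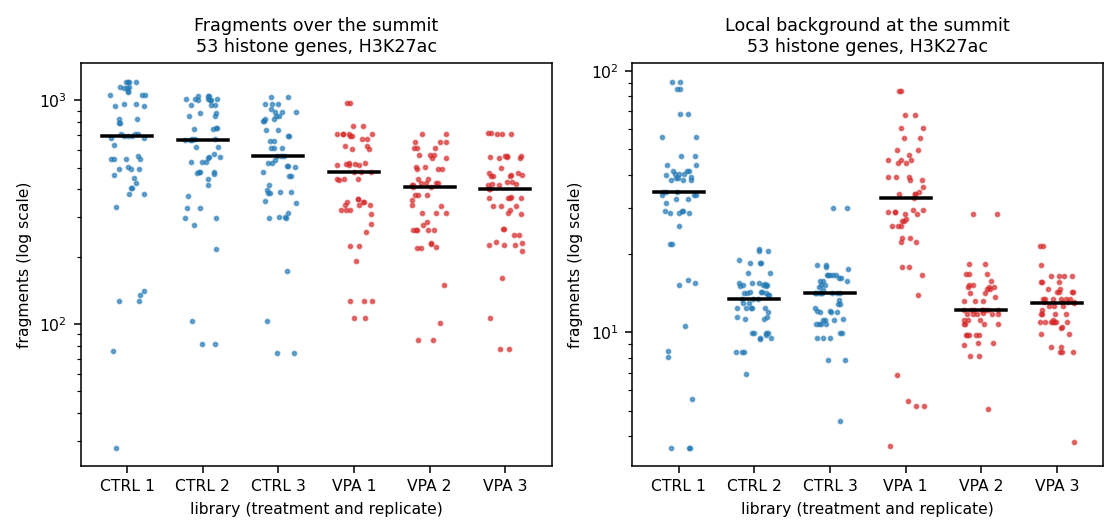
H3K27ac fragments over the summit (left) and local background at the summit (right), both on log axes, for the 53 histone genes with a peak in all 6 lists, with a point per gene and a bar at the median. Median fragments are 696, 666 and 565 in CTRL and 477, 408 and 401 in VPA, and the local background is highest in replicate 1 of both treatments (34.5 and 32.6).

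Among the genes lower in summit fragments were members of all 5 families. H2BC12 and H2AC12 changed most, with 966, 881 and 808 fragments in CTRL and 517, 447 and 421 in VPA, a log2 change of -0.57 ± 0.08 (SE, limma adjusted p = 0.00101). H1-2 had 504, 469 and 390 fragments in CTRL and 257, 229 and 226 in VPA (-0.56 ± 0.09, adjusted p = 0.00203). The pair H2AC15 and H2BC15 had 1130, 1013 and 1037 fragments in CTRL and 691, 552 and 551 in VPA (-0.47 ± 0.09, adjusted p = 0.00368). In all 3 cases the treatments did not overlap. The others called lower were H3C2 with H2AC4, H3C1 with H4C1, H2BC11 with H2AC11, H4C2, the trio H3C4, H2AC7 and H2BC7, H2BC5 with H2BC6, H1-4 and the 6 genes of the duplicated block, with log2 changes of -0.44 to -0.21.

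The 3 genes called higher in centred summit fragments were the weakest of the set, H2AC8 with H2BC8 (0.57 ± 0.16, adjusted p = 0.0207) and H1-3 (0.32 ± 0.11, adjusted p = 0.0433). H2BC8 had 76, 81 and 74 fragments in CTRL and 106, 85 and 77 in VPA, and H1-3 had 141, 103 and 103 in CTRL and 127, 101 and 106 in VPA. The fragments themselves overlapped between treatments at both genes. Without centring none of the 3 was called, and the change was 0.16 at H2AC8 and H2BC8 and -0.09 at H1-3.

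The change also followed the level of a gene across the whole table. When the 12990 genes were ordered by their mean centred summit fragments and divided into 5 groups of 2598 genes, 61.2% of the highest group were called lower and 40.3% of the lowest group were called higher. The highest group held 26 of the 53 histone genes, of which 16 (61.5%) were called lower. Below it, 3 of 10 members of the next group were called lower (31.1% of all its genes), 5 of 10 in the middle group (16.5%), 0 of 3 in the one after (7.04%) and 0 of 4 in the lowest (3.54%), where 3 members were called higher. From the highest group down, the median change in summit fragments was -0.30, -0.19, -0.22, -0.26 and 0.44 at the members, and -0.26, -0.10, 0.00610, 0.13 and 0.32 over all genes. On fold enrichment, grouped by its own level, 29, 13, 3, 5 and 3 members had median changes of -0.24, -0.13, -0.26, -0.05 and 0.14, against -0.28, -0.13, 0.00389, 0.13 and 0.31 over all genes. In the highest group the members were thus close to the other genes, while in the middle group and in the one below it their medians were lower on both measures, from few members.

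**Figure D3:**
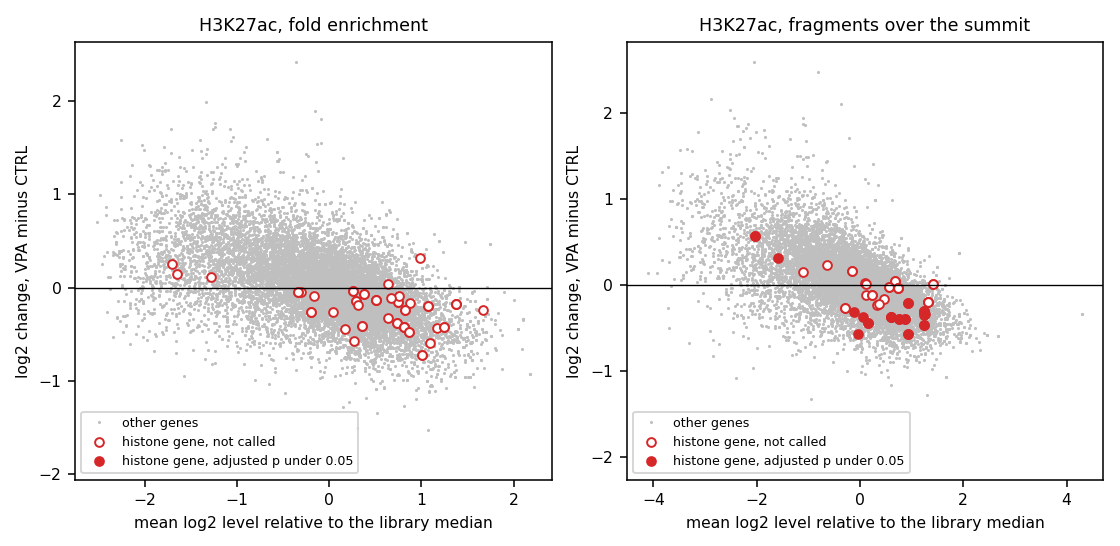
Log2 change (VPA minus CTRL) against the mean log2 level, both relative to the library median, for H3K27ac fold enrichment (left) and fragments over the summit (right), with all other genes in grey. On fold enrichment no histone gene is called, on fragments 24 are called lower and 3 higher (filled), and the histone genes lie within the falling cloud of all genes.

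H3K27ac peaks at the histone genes had a larger median width in each VPA library than in the CTRL library of the same number. The summed width of the peaks touching a member had a median of 3913, 4643 and 3854 bp in CTRL and 4209, 5452 and 4911 bp in VPA, and over all genes tested 2272, 2959 and 2927 bp in CTRL and 2873, 3941 and 3701 bp in VPA. Every VPA library was wider than every CTRL library at 10 of 53 members (18.9%), against 29.7% of all genes, and narrower at none, against 0.239%. The 10 genes were H1-2, H1-4, H4C3, H4C4, H4C5, H4C8, H2BC5, H2BC6, H2AC15 and H2BC15. At H1-2 the width was 3913, 4781 and 3855 bp in CTRL and 6441, 6624 and 5042 bp in VPA (4183 ± 519 and 6036 ± 865, SD, n = 3 each, exact permutation p = 0.1, adjusted 0.167). This p was fixed in advance, since H1-2 was among the genes named for the absence of overlap. H1-2 was thus wider in VPA while its summit held fewer fragments. At the weakest pair, H2BC8 had 535, 1205 and 1910 bp in CTRL and 1788, 2566 and 2933 bp in VPA, which overlapped (exact permutation p = 0.2, adjusted 0.25). Peaks covered a median of 71.3%, 79.2% and 72.9% of a member's window in CTRL and 75.1%, 85.0% and 83.5% in VPA, a difference of 6.73 percentage points between means of 74.5 ± 4.16 and 81.2 ± 5.35 (SD, n = 3 each).

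**Figure D4:**
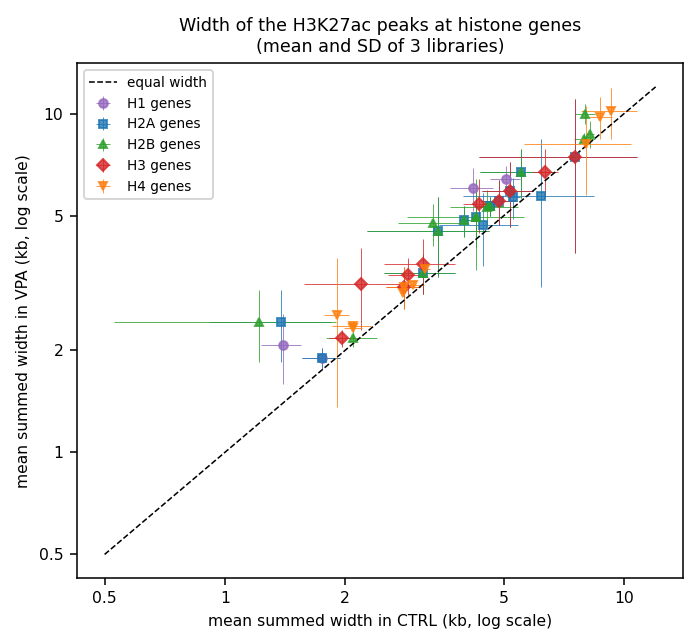
Mean summed width of the H3K27ac peaks at each of the 53 histone genes in VPA against CTRL (kb, log axes), with SD of 3 libraries as bars and symbols by family. Most points lie above the dashed line of equal width, H1-2 at 4183 and 6036 bp among them, and the weakest pair, with H2BC8 at 1217 and 2429 bp, lies farthest above it.

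CTCF was less common at histone genes than at other genes over the whole window, and similar near the TSS. A CTCF peak was found in all 6 lists at 17 of the 69 genes (24.6%), compared with 56.0% of all genes, and in at least 1 list at 30 (43.5%), compared with 76.1%. Histone genes are short, and within 1 kb of the TSS the shares were 14 of 69 (20.3%) and 24.3%. In replicates 2 and 3 most CTCF peaks at members were weak, with a median fold enrichment of 7.30 and 8.23 in CTRL and 7.66 and 7.10 in VPA, against 14.5 to 16.3 over all CTCF peaks of these lists. In replicate 1 the medians were close, at 9.24 against 9.75 in CTRL and 8.65 against 9.74 in VPA. All 17 genes also had an H3K27ac peak in all lists, as had 53 of the 69 members (76.8%). The same share among all genes with a CTCF peak in all lists was not computed.

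The strong CTCF peaks lay in the windows of a few members, and some of them were far from the TSS. H2BC18, whose GENCODE gene body spans chr1:149782689-149812373, had a CTCF fold enrichment of 41.7, 74.7 and 96.7 in CTRL and 82.2, 107 and 99.0 in VPA, the highest of the set. In CTRL replicate 1 this peak lay at chr1:149792189-149793618, whereas the TSS of H2BC18 is at position 149812373. As given above, 71.5% of the words of the H2BC18 window recur elsewhere in hg38. H2BC11 had 74.3, 60.3 and 54.0 in CTRL and 30.8, 59.0 and 58.7 in VPA. In the lists with 1 peak at H2BC11, its summit lay 5538 to 5554 bp downstream of the TSS. H2AC25 and H2BC26 shared a peak with 29.1, 33.5 and 32.3 in CTRL and 39.2, 33.9 and 36.4 in VPA. H2BC4, H4C2, H4C16 and the pair H2AC20 and H2AC21 had means of 43.0, 40.0, 30.6 and 25.9. At H2BC4 the value of CTRL replicate 1 (13.1) came from the peak at H4C3. The values of the other lists came from a region at chr6:26097127-26097914, which also lies in the gene HFE, whereas the H2BC4 TSS is at 26123926. At the low end, H3C2 had 3.51, 3.02 and 3.83 in CTRL and 4.55, 2.28 and 2.98 in VPA. Every VPA library lay above every CTRL library at 2 of the 17 genes, H2AC25 and H2BC26, against 4.33% of all genes tested, and below at 4 genes, against 2.06%. These 4 were the pairs H2AC8 with H2BC8 and H3C7 with H2BC9, each sharing a weak peak. At H3C7 the CTCF fold enrichment was 6.87, 7.06 and 7.23 in CTRL and 5.27, 5.93 and 6.21 in VPA, and at H2AC8 it was 5.88, 6.30 and 6.66 in CTRL and 3.74, 3.89 and 4.74 in VPA. At the other genes the treatments overlapped.

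No CTCF peak at a histone gene passed the test for a change with VPA. Limma called 0 of 17 higher and 0 of 17 lower with Benjamini-Hochberg adjustment over 10710 genes (adjusted p 0.999 to 1.00), against 0.00934% and 0% of all genes, and 0 of 17 had an unadjusted p under 0.05. The log2 changes ran from -0.48 ± 0.56 at H2AC8 and H2BC8 to 0.64 ± 0.62 (SE) at H2BC18. Another 13 genes (18.8%) had a CTCF peak in 1 to 5 lists, against 20.1% of all genes. H3C14 and H3C15 of the duplicated block had one in all CTRL lists (2.39, 3.99 and 3.01 at H3C14) and in VPA replicate 1 alone (3.37), and at H4C3, H4C4, H4C5, H2BC13 and H2AC13 the peak was missing in VPA replicate 1 alone. No member had a CTCF peak in all lists of only one treatment, against 0.157% of all genes for CTRL and 0.0890% for VPA.

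CTCF was then followed along the 6p22 spans with 50 kb on either side, 781 kb in all. The peaks of the 6 lists formed 39 merged regions, 21 of which were present in all 6 lists. This gave 2.69 such regions per 100 kb, compared with 0.874 over the whole of chromosome 6. In CTRL 30, 34 and 32 peaks were counted there, against 25, 35 and 33 for VPA, so the treatments overlapped. Of the 21 regions, 19 (90.5%) overlapped an H3K27ac region, compared with 46.4% on chromosome 6. Both comparisons set spans built around genes against a whole chromosome, and its other gene-rich parts were not compared. No region was present in all lists of only one treatment, and limma called none of the 21 (adjusted p = 1.00 by limma over 27794 regions, of which 0% were called in either direction). At an unadjusted p under 0.05 there was 1 of the 21, and 129 of all regions.

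The highest CTCF regions of spans 2 and 4 lay outside the groups of genes, while that of span 3 lay on a member. In span 2 the highest region (chr6:25992210-25993714) was 24.4 kb from the nearest histone gene, H1-1, outside the group, with a fold enrichment of 52.8, 95.2 and 78.1 in CTRL and 73.4, 108 and 96.9 in VPA. In span 4 the highest region (chr6:27772113-27773078) was 34.8 kb from H2BC13, also outside the group, with 60.6, 74.2 and 70.0 in CTRL and 106, 85.0 and 56.6 in VPA. In span 2, regions 8.32 and 9.67 kb from H1-2, inside the group, had means of 42.5 and 63.1. A further region of span 4 (chr6:27895253-27896374) lay 1.81 kb beyond H2BC17 at the other end of the group. In span 3 the highest region (chr6:27126699-27127671) lay inside the H2BC11 gene body. In span 1 the region in all lists (chr6:25720239-25721299) lay 2.77 kb from H2AC1, with 13.1, 78.9 and 53.9 in CTRL and 10.7, 5.15 and 52.0 in VPA.

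The CTCF core motif (CCA, any 2 bases, AG, any 2 bases, GGC) was searched on both strands within 100 bp of the summit. Of the 21 regions in all lists, 3 (14.3%, Wilson 95% interval 4.98% to 34.6%) had an exact match, compared with 23.3% of 1492 such regions on chromosome 6. With 1 mismatch allowed it was 66.7% against 67.5%. The 3 exact matches are printed as the sites on which these regions may be compared, with the fixed letters of the motif in capitals.
Region in the H2BC11 gene body, plus strand, chr6:27127232-27127243: CCAcaAGatGGC
Region 34.8 kb from H2BC13, plus strand, chr6:27772619-27772630: CCAccAGgcGGC
Region 1.81 kb from H2BC17, minus strand, chr6:27895681-27895692: CCAcaAGatGGC
The matches on either side of the span 4 group thus read on opposite strands.

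**Figure D5:**
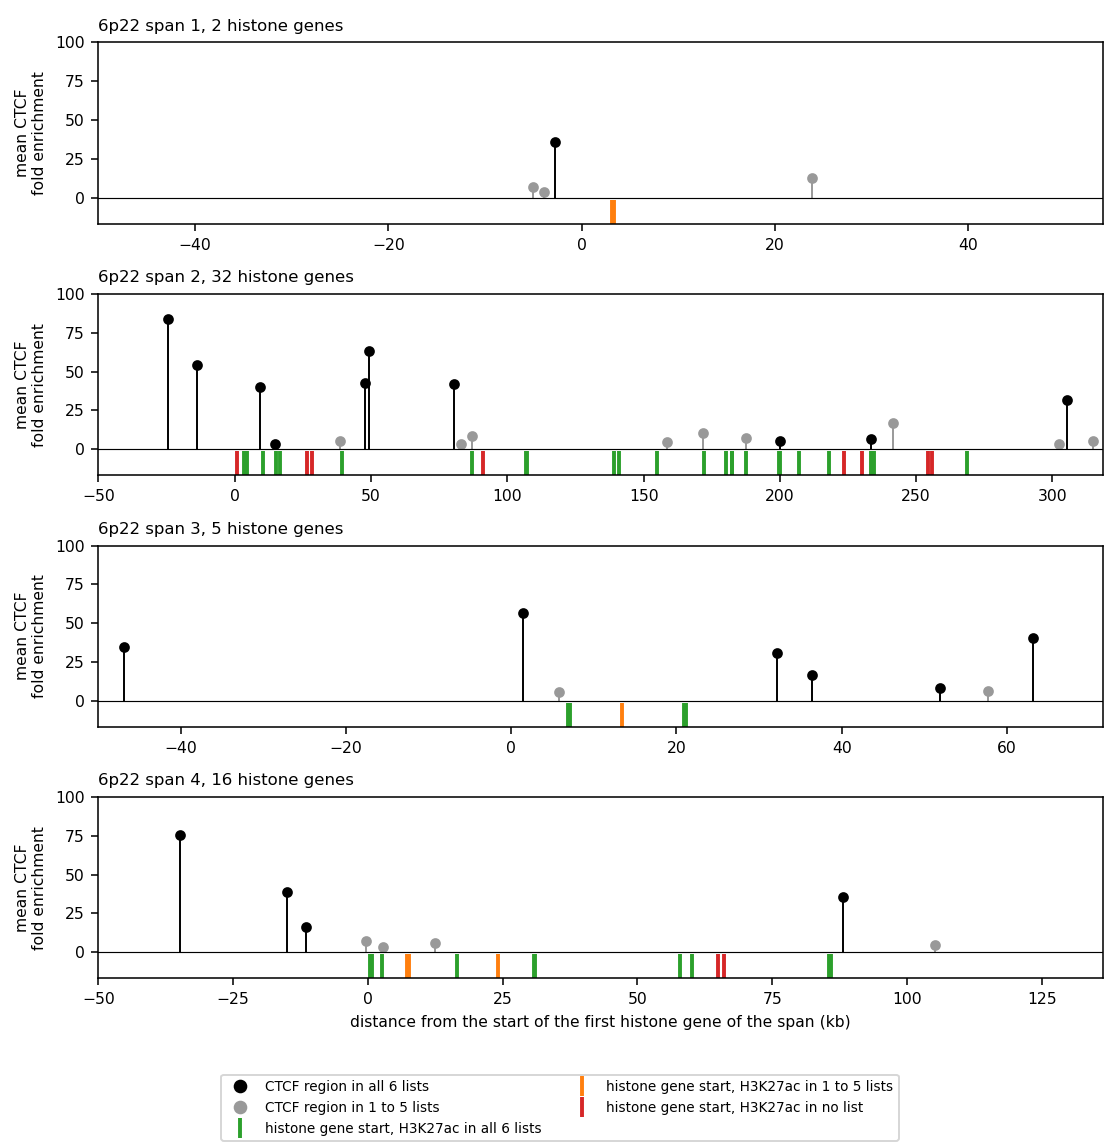
Mean CTCF fold enrichment over the lists with a peak (lollipops, black for regions in all 6 lists, grey for 1 to 5) along the 4 spans of 6p22, with distance from the start of the first histone gene in kb, and histone gene starts coloured by H3K27ac. In spans 2 and 4 the highest region stands to the left of the first gene. Strong regions also stand among the genes on the left of span 2, and weak regions or none among those on its right and inside span 4.

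The other genes of the pathway were read from fixed lists. All 18 factors of histone gene expression had an H3K27ac peak in every list, and 0 were called higher and 0 lower on fold enrichment by limma (median log2 change -0.15). NPAT, which organises the histone locus body, had an H3K27ac fold enrichment of 49.6, 45.1 and 56.5 in CTRL and 12.1, 50.0 and 36.6 in VPA (adjusted p = 0.525). SLBP, which binds the stem-loop, had 21.4, 64.9 and 56.3 in CTRL and 15.1, 42.6 and 27.9 in VPA (adjusted p = 0.371). On summit fragments 6 of the 18 were lower (POU2F1, SLBP, ERI1, CCNE2, CPSF2 and COIL, -0.55 at SLBP to -0.21 at POU2F1), against 23.9% of all genes, and 2 were higher, against 18.7% (LSM10 and ZNF473, both subunits or partners of the U7 particle that cuts histone mRNA ends, 0.32 and 0.38). Without centring 5 of the 18 were lower and 0 higher (25.7% and 1.19% of all genes), and the change was -0.10 at LSM10 and -0.03 at ZNF473.

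Of 10 histone chaperones and replication partners, 0 were called in either direction on fold enrichment, and with the replicate block ASF1A, a chaperone of H3 and H4, was lower (limma adjusted p = 0.0305). On summit fragments 5 of 10 were lower and 0 higher, against 23.9% and 18.7% of all genes. Without centring 4 were lower and 0 higher, against 25.7% and 1.19% of all genes. Among replication-independent histone genes, 11 had a peak in all lists, and 0 were called on fold enrichment (median log2 change -0.37). Most genes of this list are expressed outside S phase from mRNAs with poly(A) tails. On summit fragments 8 of the 11 were lower and 0 higher, with or without centring (23.9% and 25.7% of all genes lower), with H3-3A at -0.45 and H2AZ1 at -0.40. Calls followed the level of a gene, and 61.2% of the highest of the 5 groups of all genes were called lower. The median of the mean fold enrichment was 33.3 for the chaperones and 30.0 for the replication-independent genes, against 20.2 over all genes tested. The counts of these lists were not compared at equal level. H2AW and H2BU1 of that list are older symbols of H2AC25 and H2BC26 and were counted as members.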

How the data were processed

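Peak lists of 12 ChIP-seq libraries in 4 groups of 3 were analysed, and samples were grouped by their labels. The members and the gene lists were chosen with earlier results of these data known. According to the methods and the submitters' processing notes, the authors aligned paired reads to hg38 with Bowtie2 and called peaks per library with MACS3 3.0.0a7 at a q-value of 0.05, without pooling. Whether inputs entered the peak calling and how duplicates were treated are not given in the sources used here. The deposited lists hold for each peak the fold enrichment (a ratio to the local background), its −log10 p-value, its −log10 q-value and a score, all computed by the authors' peak caller. Every list ended within the hg38 chromosome lengths (506359 peaks in all). Numbers missing from the caller's own numbering were 19 to 111 per list.

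Fragments over each summit and the local background were recovered from the fold enrichment and p-value, and were whole within 0.05 fragments in 99.9975% to 100% of peaks. Intervals were handled in Python 3.11.15 (numpy 2.4.6, pandas 2.3.3, scipy 1.17.1) with samtools 1.23.1, pysam 0.24.0 and matplotlib 3.10.9. Genes with a peak in all 6 lists of an antibody were tested with limma 3.58.1 (R 4.3.3, trend) on the log2 fold enrichment, centred on the library median, without a block. P-values were adjusted by the Benjamini-Hochberg method over all features, with a threshold of 0.05, and the fits were tested on simulated data. Presence, extent and CTCF spacing were described without a test. Single values were compared by exact permutation. Spans joined chromosome 6 members under 150 kb apart. Genes were named by a fixed rule: members called by limma, the highest and lowest of each family, members with a peak in fewer than 6 lists, the duplicated and germ-line genes, and those outside chromosome 6 and 1q21. Other genes named were chosen after their values were seen. Alternatives changed the block, centring, measure, peak threshold, list length, overlap, window and libraries used.

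For H3K27ac, deviations of same-numbered CTRL and VPA libraries from their group means correlated across genes at 0.717, 0.356 and 0.383. On these values the block took the numbers to pair the libraries. They set replicate 1 apart (-0.54 to -0.48 with other numbers) but not replicates 2 and 3 from each other (0.407 for CTRL replicate 2 with VPA replicate 3, and 0.348 for the reverse). Deviations within a group balance each other, so a distinct replicate 1 alone gives such signs, and the check cannot establish the pairing. The labels do not say what a number shares. The depth of the libraries is unknown, and their number limits the precision. Some genes of the marker and pathway lists are not reported here by name.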

Additional observations from a re-analysis of the deposited data

How the results depend on the processing

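Of the H3K27ac calls on fold enrichment (0 higher, 0 lower), the replicate block gave 2 lower, both at the peak of H2BC12 and H2AC12, and changed no other call at the members. Summit fragments gave 3 higher and 24 lower, and combinations added after seeing the data gave 0 higher and 26 lower (uncentred summit fragments) and 3 higher and 31 lower (summit fragments with the replicate block). The other alternatives gave 0 in both directions. Over all genes, against 2 higher and 0 lower, the counts were 399 and 293 with the block, 526 and 410 from replicates 2 and 3 alone, 2433 and 3103 on summit fragments, 154 and 3334 on uncentred summit fragments and 3244 and 3843 on summit fragments with the block. The cause of these differences was not tested. Leaving out each library in turn gave 0 to 0 members called. H3K27ac peaks were in every list at 52 to 53 genes when the threshold, list length, overlap, window or 1 library was changed, and at 55 in the lists of replicates 2 and 3 alone. The number with a peak only in VPA was 0 to 1 when each library was left out in turn, the 1 being H4C9 without VPA replicate 1. CTCF peaks were in every list at 11 genes with equal list lengths (17 in the lists as deposited) and at 17 to 22 when each library was left out, highest without VPA replicate 1. CTCF only in CTRL rose from 0 to 3 genes with equal list lengths (H4C3, H2BC13 and H2AC13, 4.35% against 0.0942% of all genes) and was 0 to 2 when each library was left out, the 2 being H3C14 and H3C15 without VPA replicate 1. Leaving out each library also gave 4.81 to 9.78 percentage points for the H3K27ac extent (VPA minus CTRL), an alternative added after seeing the data, and -3 to 2 CTCF peaks per list along the spans. CTCF strength at genes and regions gave 0 calls under all alternatives. For CTCF the same-numbered libraries correlated at 0.323, -0.023 and 0.440, which cannot establish whether the numbers pair them. The replicate block gave 0 CTCF calls at the members. The share of CTCF regions with the motif was 14.3% exact and 66.7% with 1 mismatch, which by construction admits more sites. Peaks cannot show signal below the threshold of the peak caller, so absence of a peak is not absence of acetylation or binding.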
